A study of Callithrix jacchus with 54 samples.

Results

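The 9 genes described here mark or guide germ cells at the cell surface and were followed through the conversion of common marmoset embryonic stem cells (cjESCs) into primordial germ cell-like cells (PGCLCs): PDPN, KIT, ITGA6, CXCR4, CXCL12, ALPL, PECAM1, CCR6 and THY1. The genes were taken by symbol from the table of expression values, which holds 14812 genes. Of the 9 symbols, 8 have a row in that table. CXCR4 was not analysed here. All 8 genes passed the filter on low values, a log2(TPM + 1) of at least 1.5 in at least 1 library, which 11197 genes passed. TPM, a gene's share of all transcripts in a library on a fixed scale, corrects for transcript length, so that levels of different genes can be set side by side.

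Primordial germ cells are the founders of eggs and sperm and travel through the embryo to the gonad. KIT is the receptor of stem cell factor (SCF, the product of KITLG), on which migrating germ cells of the mouse depend, and CXCR4 is the receptor for the chemokine CXCL12 that somatic tissue along the route secretes. Podoplanin (PDPN) is a mucin-like membrane protein, integrin α6 (ITGA6) is a laminin receptor, and tissue-nonspecific alkaline phosphatase (ALPL) is the classical histochemical marker of germ cells. PECAM1 is an adhesion molecule of endothelium and germ cells, CCR6 is the receptor of the chemokine CCL20, and THY1 is a GPI-anchored protein of fibroblasts and of several stem cell types. PDPN, KIT and ITGA6 were picked by the study as candidate surface markers in part from its own expression profiles, so their direction in PGCLCs is not independent evidence.

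Poly(A) RNA was sequenced from 27 groups with 2 replicates each, 54 libraries in all, and every cell came from the female cjESC line CMES40 with BLIMP1-tdTomato and NANOS3-eGFP reporters. The TG+ line also carries inducible SOX17, BLIMP1 and TFAP2C, was kept in DK20FA medium, and was induced with BMP4, LIF, SCF and EGF (BLSE), with SOX17 + BLSE, or with SOX17 + LSE (no BMP4), sampled at 12, 24, 48 and 96 h. SOX17 was switched on with dexamethasone, which the cells in BLSE alone did not receive, so that the drug and the factor cannot be told apart. The TG− line, with the reporters only and labelled wild type, was kept in PESFA medium, pre-treated with IM12 (a WNT agonist) and activin A for 24 h, and then induced in BLSE + IWR1 (a WNT inhibitor) or BLSE + IWR1 + BMS (with BMS493, an inverse agonist of retinoic acid receptors) at the same times. BLSE + IWR1 was also sampled at day 6, and day 6 PGCLCs were aggregated with mouse female gonadal somatic cells of E12.5 (xrOvary) and recovered at days 20, 40 and 70. Per the methods, cjESCs were maintained on irradiated mouse embryonic fibroblasts as feeders and pre-treated on fibronectin. The cjESCs, with and without pre-treatment, were sorted for TRA-1-60, a surface antigen of pluripotent cells. At 96 h and later the cells were sorted for tdTomato, except in BLSE alone, and cells at 12 to 48 h and in BLSE at 96 h were not sorted. Sorted cells of SOX17 + LSE are labelled as differentiated cells and not as PGCLCs. The groups of BLSE and SOX17 at 96 h therefore differ in the sort as well as in SOX17, and the line, the medium and the pre-treatment differ together between the routes. All induction media held mouse SCF and a ROCK inhibitor.

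Libraries of a group correlated at r = 0.977 to 0.994 over the genes kept, and none of the 54 columns were identical. TPM keep no read totals, so the depth is unknown and no counting interval is given. The 6 PGCLC markers fixed for this work (SOX17, PRDM1, TFAP2C, NANOS3, DND1 and TFCP2L1) summed to between 1416 and 2682 TPM in the sorted tdTomato-positive groups and to between 253 and 295 TPM in BLSE at 96 h. The sum was between 289 and 295 TPM in cjESCs in DK20FA and between 1760 and 1916 TPM in SOX17 + LSE at 96 h. PRDM1 is BLIMP1, whose tdTomato reporter was used for the sort, and SOX17 was the factor switched on. A high sum in sorted cells is therefore not independent evidence of their identity. In these bulk libraries, fewer cells of a type and less RNA per cell cannot be told apart. "Rose" and "fell" are used for differences with a Benjamini-Hochberg adjusted p under 0.01 in a limma model over all 54 libraries. Log2 fold changes are differences in log2(TPM + 1), which come out too small for genes near 0 TPM.

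PDPN was by far the most abundant of the 8 genes and was lowest in BLSE alone at 48 and 96 h, whose libraries lay below those of the other groups. Its mean log2 level stood at percentile 97.6 of the genes kept. In cjESCs it was at 620.0 and 444 TPM in DK20FA and at 682 and 654 TPM in PESFA, a difference that did not pass the test (log2 difference 0.35, 95% interval 0.08 to 0.62, adjusted p = 0.0475). In BLSE without SOX17 the level went down at each time, with 403 and 338 TPM at 12 h, 205 and 200.3 TPM at 24 h, 70.4 and 59.7 TPM at 48 h, and 9.24 and 9.40 TPM at 96 h. The libraries of these 4 times did not overlap. From cjESCs in DK20FA, PDPN fell by 3.0 on the log2 scale at 48 h (SE 0.132, adjusted p = 2.86e-19) and by 5.67 at 96 h (adjusted p = 7.32e-29). The group of BLSE at 96 h held the lowest PDPN of the 27. At each of these times 3 of the 8 genes, PDPN, CXCL12 and THY1, differed from DK20FA and all 3 were lower, where 19.8% of all genes differed at 48 h and 29.5% at 96 h. For THY1 the adjusted p of 0.00261 at 48 h became 0.0163 to 0.0244 without any 1 of the 4 libraries.

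With SOX17 and the same cytokines PDPN stayed high. Cells in SOX17 + BLSE held 798 and 902 TPM at 12 h, 694 and 647 TPM at 24 h, 648.5 and 685 TPM at 48 h, and 1242 and 1195 TPM at 96 h, where they were sorted. Against BLSE alone, the log2 fold change was 1.20 at 12 h (SE 0.132, adjusted p = 9.48e-08), 1.72 at 24 h (adjusted p = 9.93e-12), 3.34 at 48 h (adjusted p = 2.95e-20) and 6.88 at 96 h (adjusted p = 2.04e-31). The cells of the first 3 times were all unsorted, and there the difference was already larger at 48 h than at 12 h by 2.14 (95% interval 1.76 to 2.52, adjusted p = 1.95e-09), a test that called 1 of the 8 genes and 2.46% of all genes. Of the 8 genes, 2, 3, 3 and 3 differed between SOX17 + BLSE and BLSE at 12, 24, 48 and 96 h, where 2.4, 7.56, 16.7 and 45.4% of all genes tested did. PDPN was the gene of the 8 that passed at each of the 4 times, and at 48 h it was also the only one past a 4-fold difference, which 2.02% of genes passed. The median log2 fold change of the 8 genes at 48 h was 0.42, beside 0.10 over all genes.

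**Figure D1:**
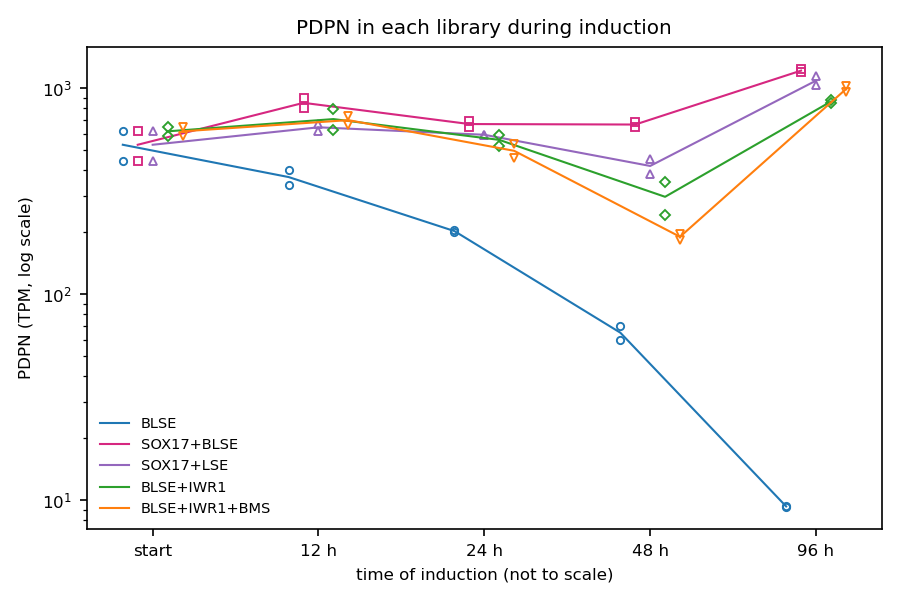
PDPN in TPM (log scale) against time of induction under the 5 conditions, with 2 points per group for the libraries and lines through the means; the start is cjESCs in DK20FA for the 3 conditions of the TG+ line and pre-treated cjESCs for the others. BLSE alone ends at 9.24 and 9.40 TPM, whereas every other library at 96 h lies between 847 and 1242 TPM.

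In the TG− line, without exogenous SOX17, PDPN was lower at 48 h and high again in sorted cells at 96 h. Pre-treated cjESCs held 652 and 584 TPM. In BLSE + IWR1, PDPN was at 792 and 625 TPM at 12 h, 527 and 596 TPM at 24 h, 243 and 351 TPM at 48 h, and 847 and 877 TPM in the sorted cells at 96 h. It fell by 1.08 on the log2 scale from pre-treated cells to 48 h (SE 0.132, adjusted p = 5.56e-08), where 2 of the 8 genes and 19.2% of all genes passed. With BMS493 the values at 48 h were lower, at 184 and 196 TPM, and at 96 h they were 958 and 1022 TPM. The decrease with BMS493 at 48 h was 0.62 (adjusted p = 0.00187), and it made PDPN the 1 gene of the 8 that passed that comparison, in which 4.83% of all genes did. Without the second BLSE + IWR1 library the decrease was 0.36 (adjusted p = 0.0849), and without the first BLSE + IWR1 + BMS library it was 0.57 (adjusted p = 0.0314). At 96 h the groups with and without BMS493 differed by 0.20 (95% interval −0.07 to 0.47, adjusted p = 0.501). At 12 and 24 h with BMS493 the limma test called 0 of the 8 genes, and 0 of the 8 had an unadjusted p under 0.05. Over all genes it called 0 at 12 h, with 1067 at an unadjusted p under 0.05, and 10 at 24 h, 0.0893% of those tested. At 96 h it called 0 of the 8, with 2 at an unadjusted p under 0.05, and 0.732% of all genes. These counts for all genes and members come from the same limma fit.

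Compared with the cells in BLSE alone, PDPN in BLSE + IWR1 was higher by 2.16 on the log2 scale at 48 h (adjusted p = 5.68e-15) and by 6.39 at 96 h (adjusted p = 2.85e-30). These comparisons cross the lines, the media and the pre-treatment, and the one at 96 h also sets sorted cells against unsorted ones. They called 4 of the 8 genes at each time, where 21.2% and 44.1% of all genes passed. Between the sorted cells of BLSE + IWR1 and SOX17 + BLSE at 96 h, 2 of the 8 genes and 6.08% of all genes passed: PDPN was lower in BLSE + IWR1 by 0.50 (adjusted p = 0.00996) and CXCL12 higher by 1.98 (adjusted p = 4.38e-05). The PDPN difference had an adjusted p of 0.0501 to 0.0701 without any 1 of the 4 libraries and of 0.0113 in the fit that blocks on replicate number.

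The sorted tdTomato-positive cells of every induction held between 847 and 1242 TPM of PDPN. Relative to their own cjESCs, PDPN rose by 1.21 (log2) in SOX17 + BLSE, 1.05 in SOX17 + LSE, 0.57 in BLSE + IWR1 + BMS at 96 h and 0.65 in BLSE + IWR1 at day 6 (adjusted p from 1.08e-09 to 0.000479). These 4 comparisons called 3, 5, 5 and 5 of the 8 genes, where 43.2, 33.8, 41.4 and 44.9% of all genes passed. In BLSE + IWR1 at 96 h the difference was 0.37 (95% interval 0.10 to 0.64, adjusted p = 0.0184), in a comparison that called 4 of the 8 genes and 43.4% of all genes. The change in the SOX17 + BLSE route was larger than that in the BLSE + IWR1 route by 0.85 (SE 0.187, adjusted p = 0.00112), in a comparison in which 3 of the 8 genes and 11.4% of all genes passed. It was 0.61 (adjusted p = 0.024) without the second library of cjESCs in DK20FA, which held 444 TPM. PDPN in SOX17 + LSE at 48 h, at 385 and 454 TPM, was below SOX17 + BLSE by 0.67 (adjusted p = 0.000355), and the adjusted p was 0.0249 without the first SOX17 + LSE library and 0.0102 without the second SOX17 + BLSE library. In sorted cells at 96 h the difference of 0.16 did not pass (95% interval −0.11 to 0.43, adjusted p = 0.489).

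The ERM proteins ezrin (EZR), moesin (MSN) and radixin (RDX) link the cytoplasmic tail of podoplanin to actin, and CD9 is a tetraspanin that binds it. Of 6 tested genes of this list, 1 rose and 2 fell in SOX17 + BLSE against BLSE at 48 h, where 16.7% of all genes passed, with a log2 fold change of 0.53 for CD9, −0.70 for MSN and −0.75 for RDX. At 96 h, where 45.4% of all genes passed, 0 rose and 2 fell, RDX by 2.05 (adjusted p = 5.01e-14) and MSN by 1.05 (adjusted p = 1.25e-05). In SOX17 + BLSE against SOX17 + LSE at 48 h, where 8.01% of all genes passed, 2 of the 6 rose, CD9 by 1.3 (adjusted p = 4.76e-08) and EZR by 0.95 (adjusted p = 3.71e-06). EZR was abundant throughout, with 761 and 656 TPM in cjESCs in DK20FA and 1532 and 1467 TPM in SOX17 + BLSE at 48 h.

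The genes whose group means followed PDPN most closely over the 27 groups were NANOG, the pluripotency factor, at Pearson r = 0.96, DPPA5 at 0.93 and ARSI at 0.92. These are descriptions over groups that share lines, sorts and TPM scaling, with no test.

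KIT transcripts were scarce in every group, and the highest levels before the xrOvary lay in the sorted cells. KIT stood at percentile 8.7 of the genes kept, its highest library held 5.16 TPM, and it was listed at 0 in 16 of the 54 libraries. It passed the filter on low values only through sorted tdTomato-positive libraries, and all other libraries held 1.44 TPM or less. KIT was thus kept through the same cells in which it was then tested, so those tests are not independent of the filter. In cjESCs KIT was at 0.17 and 0 TPM in DK20FA and at 0 in both PESFA libraries. In SOX17 + BLSE it was listed at 0 in both libraries at 12 h, was at 0.88 and 0.63 TPM at 24 h and 1.01 and 1.44 TPM at 48 h, and reached 3.37 and 3.62 TPM in sorted cells at 96 h. The 3 later times did not overlap. In BLSE alone KIT did not exceed 0.36 TPM, a value reached at 48 h.

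Every sorted group at 96 h and day 6 held more KIT than its cjESCs. KIT was at 1.61 and 1.95 TPM in SOX17 + LSE at 96 h, at 3.90 and 2.61 TPM in BLSE + IWR1, at 3.73 and 2.89 TPM in BLSE + IWR1 + BMS, and at 5.16 and 3.99 TPM at day 6, the group with the highest mean. Against cjESCs in DK20FA, KIT rose by 2.05 on the log2 scale in SOX17 + BLSE (SE 0.205, adjusted p = 1.45e-10) and by 1.36 in SOX17 + LSE (adjusted p = 1.2e-06). For the TG− line no fold is given because PESFA was listed at 0, and the test gave an adjusted p of 1.23e-10 for BLSE + IWR1, 8.18e-11 for BLSE + IWR1 + BMS and 1.17e-12 for day 6. The sorted groups of the 2 main routes at 96 h overlapped, with a difference of −0.10 for BLSE + IWR1 against SOX17 + BLSE (95% interval −0.51 to 0.32, adjusted p = 0.84).

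Before any sort, KIT was called in SOX17 + BLSE at 48 h. It was higher in SOX17 + BLSE than in BLSE by 0.86 (95% interval 0.45 to 1.28, adjusted p = 0.00156) and higher than in SOX17 + LSE, at 0.24 and 0.21 TPM, by 0.85 (95% interval 0.44 to 1.27, adjusted p = 0.00327). Both groups compared with it lay below both of its libraries. At these levels the calls were not firm: with a pseudocount of 0.1 the adjusted p was 0.0135 against BLSE and 0.0372 against SOX17 + LSE, and without the second SOX17 + BLSE library it was 0.0437 and 0.075. Without the second BLSE library it was 0.0514, and without either SOX17 + LSE library it was 0.0262 or 0.0346. The difference from BLSE at 24 h, 0.71, did not pass (95% interval 0.29 to 1.12, adjusted p = 0.0167). At 96 h KIT was higher by 2.06 in SOX17 + BLSE than in BLSE (adjusted p = 9.07e-11), and in BLSE + IWR1 it was higher than in BLSE by 1.97 (adjusted p = 2.99e-10). Both set sorted cells against unsorted ones, and the second also crosses the lines, the media and the pre-treatment.

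Of the listed signalling genes around KIT that were called, more fell than rose from cjESCs to PGCLCs. Of 15 tested genes, 2 rose and 6 fell in SOX17 + BLSE at 96 h against DK20FA, where 43.2% of all genes passed, and the list's median log2 fold change was −0.41 beside 0.14 over all genes. At day 6 against PESFA, where 44.9% of all genes passed, 2 rose and 6 fell, with a median of −0.43 beside 0.11. Of all genes called, 59.3% were higher in the first comparison and 55.5% in the second. With median-ratio scaling these shares were 47.1% and 42.1%. KITLG, which encodes the ligand, was at 4.69 and 3.16 TPM in DK20FA and at 0.38 and 0.09 TPM in SOX17 + BLSE at 96 h, a decrease of 1.99 (adjusted p = 1.5e-06). In the TG− line KITLG was at 4.45 and 6.96 TPM in PESFA and at 0 and 0.17 TPM at day 6, and it fell by 2.61 (adjusted p = 6.31e-09). LYN, a Src-family kinase that acts downstream of KIT, fell by 2.86 and 3.22 in the same comparisons, SHC1, an adaptor protein, by 1.93 and 2.77, and SH2B3, a negative regulator of cytokine receptors, by 2.31 and 2.38. Over the 27 groups the patterns closest to KIT were those of OXCT1 (r = 0.99), PHF8 (r = 0.98) and SIAH3 (r = 0.97). KIT was low in cjESCs and unsorted cells, so these r rest mostly on the sorted tdTomato-positive groups. They are descriptions with no test.

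ITGA6 was low, and of the 30 comparisons limma called 0 increases and 3 decreases, with 12 comparisons at an unadjusted p under 0.05. It ranged from 0.26 to 6.35 TPM over the libraries. The group with the highest mean was SOX17 + LSE at 48 h, with 6.35 and 5.5 TPM, and the lowest was day 6, with 0.77 and 0.57 TPM. In cjESCs it was at 3.94 and 3.56 TPM in DK20FA and at 2.21 and 5.53 TPM in PESFA, so that the PESFA libraries enclosed those in DK20FA. In the TG− line it fell from PESFA by 1.44 on the log2 scale in BLSE + IWR1 at 96 h (SE 0.309, adjusted p = 0.00016), by 1.09 with BMS493 (adjusted p = 0.00322) and by 1.46 at day 6 (adjusted p = 0.000129). Without the second PESFA library, at 5.53 TPM, these decreases were 0.93, 0.58 and 0.95, with adjusted p of 0.0305, 0.191 and 0.0266. In the TG+ line the difference of SOX17 + BLSE at 96 h from DK20FA was −0.92 (95% interval −1.55 to −0.30, adjusted p = 0.0115). SOX17 + BLSE lay below SOX17 + LSE at 48 h by 0.89 (95% interval −1.51 to −0.26, adjusted p = 0.0516) and at 96 h by 0.93 (95% interval −1.56 to −0.31, adjusted p = 0.0391), neither of which passed.

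The partner of ITGA6 in the α6β1 receptor, ITGB1, was abundant, with 730 and 732 TPM in DK20FA and 412 and 408 TPM in SOX17 + BLSE at 96 h. The other partner, ITGB4, did not exceed 1.16 TPM in any library. Of 13 tested integrin and laminin genes, 6 rose and 0 fell in BLSE at 96 h against DK20FA, where 29.5% of all genes passed, among them ITGA1 with a log2 fold change of 1.72 and LAMC1, a laminin chain, with 1.93. In SOX17 + BLSE against BLSE at 96 h, 1 rose and 8 fell, where 45.4% of all genes passed. The largest decreases were those of ITGA1 by 4.06 (adjusted p = 1.73e-14), LAMA1 by 2.45 (adjusted p = 8.32e-10), ITGAV by 1.96 (adjusted p = 4.49e-11) and CD151, a tetraspanin that binds laminin receptors, by 1.83 (adjusted p = 2.2e-12). The list's median was −0.91 beside 0.24 over all genes. ITGB1 fell by 0.98 (adjusted p = 4.78e-08). The sort differs between these groups, and 10 fibroblast and mesenchyme markers summed to between 1375 and 2072 TPM in BLSE at 96 h and to between 109 and 111 TPM in SOX17 + BLSE. Their part in these differences was not tested.

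CXCL12 was expressed in cjESCs, was at 3.44 TPM or less in every library at 96 h and day 6, and rose in the xrOvary. It was at 50.6 and 51.6 TPM in DK20FA, at 78.2 and 33.8 TPM in PESFA and at 44.2 and 78.8 TPM after pre-treatment. The spread between replicates in the last pair of groups was wide. In each, the library with more CXCL12 also had more COL1A1, a fibroblast collagen gene. COL1A1 was at 1598 against 878 TPM in PESFA and at 2715 against 1385 TPM after pre-treatment. The part of other cells in these values, mouse feeders among them, was not tested. In BLSE, CXCL12 was at 36.8 and 17.7 TPM at 12 h, 22.6 and 16.5 TPM at 24 h, 7.54 and 10.8 TPM at 48 h, and 0 and 0.21 TPM at 96 h.

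With SOX17 the level was lower from 12 h on. SOX17 + BLSE held 6.63 and 4.61 TPM at 12 h, 4.57 and 5.79 TPM at 24 h, 1.51 and 2.65 TPM at 48 h, and 0 and 0.15 TPM at 96 h. Against BLSE, CXCL12 was lower by 2.02 (log2) at 12 h (SE 0.325, adjusted p = 7.47e-05), by 1.73 at 24 h (adjusted p = 0.000236) and by 1.73 at 48 h (adjusted p = 9.07e-05). Without the first BLSE library at 12 h, at 36.8 TPM, the first of these was 1.51 with an adjusted p of 0.0188. At 96 h both groups were near 0 (difference −0.04, 95% interval −0.70 to 0.62, adjusted p = 0.944). CXCL12 and PDPN, which went in opposite directions, were the 2 genes of the 8 that differed at 12 h.

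In the presence of SOX17, CXCL12 was lower with BMP4 than without it. SOX17 + LSE held 12.7 and 9.88 TPM at 12 h, 27.4 and 19.9 TPM at 24 h, 18.1 and 16.3 TPM at 48 h and 3.3 and 3.23 TPM in sorted cells at 96 h, so that from 12 h on its libraries lay above those with BMP4. The log2 fold change with BMP4 was −1.98 at 24 h (adjusted p = 8.97e-05), −2.59 at 48 h (adjusted p = 2.47e-07) and −1.99 at 96 h (adjusted p = 3.4e-05). Of the 8 genes, 0, 2, 5 and 1 differed with BMP4 at 12, 24, 48 and 96 h, where 0.277, 2.62, 8.01 and 7.11% of all genes did, and 2 of the 8 had an unadjusted p under 0.05 at 12 h. The 5 at 48 h were PDPN and KIT, which were higher with BMP4, and CXCL12, CCR6 and THY1, which were lower. The median of the 8 genes was −0.82 beside 0.00 over all genes. CXCL12 was the 1 of these 5 past a 4-fold difference, which 1.02% of genes passed. The count was 2 with a pseudocount of 0.1 and between 2 and 3 when 1 of the 4 libraries was left out.

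In the TG− line CXCL12 was higher at 48 h than in BLSE alone by 1.64 (adjusted p = 0.000141, and 0.015 without the second BLSE + IWR1 library), with 44.2 and 31.7 TPM in BLSE + IWR1 at 12 h, 39.8 and 50.9 TPM at 24 h, 22.0 and 41.5 TPM at 48 h, and 3.04 and 3.44 TPM in sorted cells at 96 h. With BMS493 it was at 32.9 and 30.6 TPM at 12 h, 39.0 and 35.7 TPM at 24 h, 19.6 and 24.6 TPM at 48 h, and 0.56 TPM in both sorted libraries at 96 h. The difference with BMS493 at 96 h was −1.44 (95% interval −2.10 to −0.78, adjusted p = 0.0108) and missed the threshold. At day 6 CXCL12 was at 0.70 and 0.09 TPM and had fallen by 5.27 from PESFA (adjusted p = 4.23e-16) and by 1.64 from 96 h (adjusted p = 0.00125). Day 6 against 96 h called 1 of the 8 genes and 2.75% of all genes, and the adjusted p of CXCL12 was 0.0641 without the second day 6 library. The decrease from cjESCs to 96 h was 5.6 in SOX17 + BLSE (adjusted p = 1.18e-16), 3.61 in SOX17 + LSE (adjusted p = 1.93e-11), 3.63 in BLSE + IWR1 (adjusted p = 1.05e-11) and 5.07 in BLSE + IWR1 + BMS (adjusted p = 1.57e-15). The decrease in the SOX17 + BLSE route was larger than that in the BLSE + IWR1 route by 1.97 (adjusted p = 0.00185). It was larger by 1.38 without the second PESFA library, with an adjusted p of 0.0454, and the adjusted p was 0.0105 without the first SOX17 + BLSE library.

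CCR6 was at most 3.58 TPM before the xrOvary and was listed at 0 in 24 libraries. It passed the filter only through libraries of SOX17 + LSE at 48 and 96 h and of the xrOvary. Its higher levels there are therefore not independent of the filter. Of the induced groups, SOX17 + LSE held the most, with 1.67 and 2.29 TPM at 48 h and 3.58 and 1.20 TPM at 96 h. BMP4 was accompanied by lower CCR6 at 48 h, with 0 and 0.23 TPM in SOX17 + BLSE (log2 fold change −1.42, 95% interval −2.06 to −0.77, adjusted p = 0.00154), and at 96 h the difference of −1.14 did not pass (adjusted p = 0.0123). The first of these had an adjusted p of 0.0173 with a pseudocount of 0.1, 0.0401 without the first SOX17 + BLSE library and 0.037 without the second SOX17 + LSE library. CCR6 in SOX17 + LSE at 96 h was above DK20FA by 1.35 (adjusted p = 0.000639), and by 0.82 (adjusted p = 0.0755) without the library at 3.58 TPM.

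**Figure D2:**
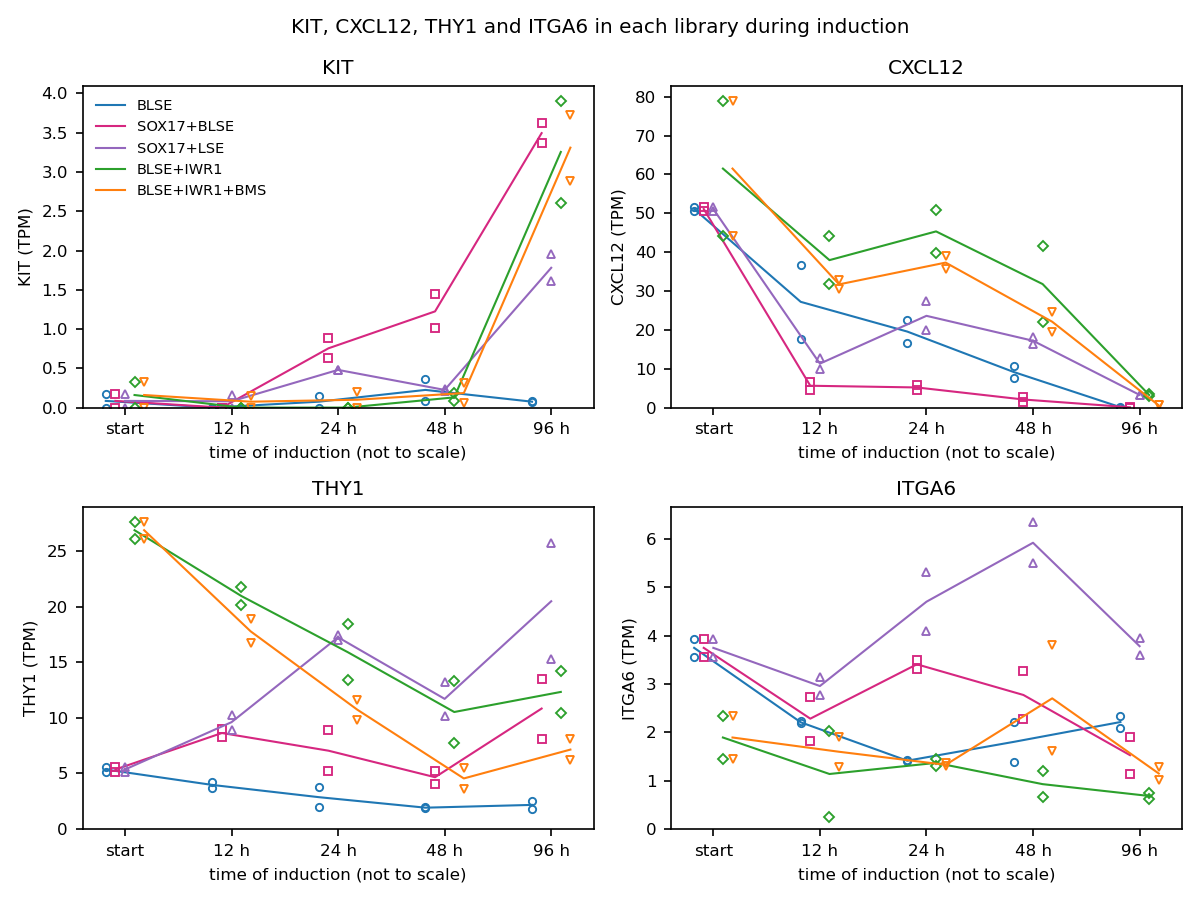
KIT, CXCL12, THY1 and ITGA6 in TPM (linear scales that differ between panels) against time of induction under the 5 conditions, with 2 points per group for the libraries and lines through the means. KIT lies at 1.61 TPM or more at 96 h in every condition but BLSE, CXCL12 ends at 3.44 TPM or less in all 5, and THY1 starts at 26.1 and 27.6 TPM in pre-treated cells and at 5.16 and 5.56 TPM in DK20FA.

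THY1 differed between the starting cjESCs. It was at 5.16 and 5.56 TPM in DK20FA and at 28.3 and 27.5 TPM in PESFA, a log2 fold change of 2.18 (SE 0.287, adjusted p = 3.02e-07). Of the 8 genes it was the 1 that differed between these cjESCs, where 16.8% of all genes did. The TG+ line was kept in DK20FA and the TG− line in PESFA, so line and medium cannot be told apart. The 10 fibroblast and mesenchyme markers, all in the table, were higher in PESFA too, with sums of 1924 to 3171 TPM against 250 to 296 TPM and none of them at 0 in both libraries of either group. Their part in the difference was not tested. RNA of the mouse feeders that aligned to the marmoset genome was not tested for either. After pre-treatment THY1 was at 26.1 and 27.6 TPM with a marker sum of 2621 to 5000 TPM, and at 12 h in BLSE + IWR1 it was at 21.8 and 20.2 TPM with a marker sum of 149 to 243 TPM. For pre-treatment against PESFA limma called 0 of the 8 genes, with 1 at an unadjusted p under 0.05, and 0.304% of all genes.

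THY1 fell during induction of the TG− line. It was at 13.4 and 18.4 TPM at 24 h, 7.74 and 13.3 TPM at 48 h and 10.5 and 14.2 TPM in sorted cells at 96 h in BLSE + IWR1, and at 6.23 and 8.07 TPM at 96 h with BMS493. The decrease from PESFA was 1.13 at 96 h (adjusted p = 0.00112), 1.83 with BMS493 (adjusted p = 1.51e-06) and 1.61 at day 6 (adjusted p = 1.13e-05), and the first of these had an adjusted p of 0.0287 without the first BLSE + IWR1 library. In the TG+ line the levels with SOX17 lay above those in BLSE, where THY1 was at 1.95 and 3.79 TPM at 24 h and at 1.79 and 2.56 TPM at 96 h. SOX17 + BLSE held 5.19 and 8.91 TPM at 24 h and 13.5 and 8.14 TPM at 96 h. The difference was 1.87 at 96 h (adjusted p = 9.08e-07). At 24 h it was 1.06 (adjusted p = 0.00994), and the adjusted p lay between 0.0154 and 0.0263 with another pseudocount, scaling, filter or with the TG+ libraries alone, 0.176 without the first BLSE library and 0.21 without the second SOX17 + BLSE library. At 12 and 48 h the differences of 0.96 and 0.95 did not pass (adjusted p = 0.0476 and 0.0127). BLSE at 96 h had less THY1 than DK20FA by 1.01 (adjusted p = 0.00451), a difference that missed the threshold without the first BLSE library.

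SOX17 + LSE held the most THY1 of the TG+ line from 24 h on, with 17.0 and 17.5 TPM at 24 h, 10.2 and 13.2 TPM at 48 h and 25.7 and 15.3 TPM at 96 h. At 24 h THY1 was lower with BMP4 by 1.22 (adjusted p = 0.0065), and the adjusted p was 0.011 to 0.0518 with no filter, with the TG+ libraries alone or with a pseudocount of 0.1, and 0.224 without the first SOX17 + BLSE library. At 48 h BMP4 was accompanied by a decrease of 1.16 (95% interval −1.75 to −0.58, adjusted p = 0.00423). The adjusted p was 0.0243 with a pseudocount of 0.1 and 0.011 with the TG+ libraries alone, and between 0.0126 and 0.0805 when 1 of the 4 libraries was left out. THY1 changed differently along the routes: from cjESCs to sorted cells at 96 h the difference was 0.86 in SOX17 + BLSE (95% interval 0.28 to 1.44, adjusted p = 0.0115) and −1.13 in BLSE + IWR1, and the routes differed by 1.99 (SE 0.406, adjusted p = 0.000452).

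PECAM1 ranged from 2.63 to 18.5 TPM over the libraries, with group means between 3.8 in BLSE + IWR1 at 48 h and 17.2 TPM in the xrOvary at day 20. Each of the 26 pairs of groups next to each other in its order overlapped. Of the 30 comparisons, 1 called it. PECAM1 was lower by 1.16 in BLSE + IWR1 than in BLSE at 48 h (SE 0.251, adjusted p = 0.000406), with 2.63 and 4.97 TPM against 9.04 and 9.85 TPM. The decrease was 0.81 without the first BLSE + IWR1 library (adjusted p = 0.0339). That comparison crosses the lines, the media and the pre-treatment. At 12 h PECAM1 was at 5.49 and 5.10 TPM in BLSE + IWR1 and at 11.5 and 10.5 TPM in BLSE. In 12 of the 30 comparisons the unadjusted p was under 0.05. Day 6 PGCLCs, at 16.1 and 11.8 TPM, were above PESFA, at 9.67 and 6.31 TPM, by 0.74 (95% interval 0.23 to 1.25, adjusted p = 0.0118), which did not pass. Of 9 other endothelial markers in the table (10 in the list), CDH5 (VE-cadherin) was at 1.21 and 0.51 TPM in DK20FA and at 29.2 and 27.7 TPM in PESFA, and the markers summed to between 40.0 and 54.5 TPM and between 108 and 120.3 TPM in these groups, whose PECAM1 levels overlapped.

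ALPL was hardly detected, and limma called it in 0 of the 30 comparisons, with 2 at an unadjusted p under 0.05. It was listed at 0 in 9 libraries and reached 3.34 TPM at most. It was listed at 0 in all 6 libraries of BLSE at 24, 48 and 96 h. In sorted cells at 96 h it was at 1.31 and 0.99 TPM in SOX17 + BLSE, 0.69 and 1.89 TPM in SOX17 + LSE, 0.99 and 1.17 TPM in BLSE + IWR1 and 0.94 and 0.87 TPM in BLSE + IWR1 + BMS, above the BLSE libraries in each case, with adjusted p of 0.0236 for SOX17 + BLSE and 0.0302 for BLSE + IWR1. With a pseudocount of 0.1 these were 0.0055 and 0.00655. Of 4 tested genes of the phosphatase list, PHOSPHO1, a phosphatase of mineralising cells, rose by 3.96 in BLSE at 96 h against DK20FA (adjusted p = 1.71e-13), ENPP1, which makes pyrophosphate, by 1.27 and GPAA1, a subunit of the enzyme that attaches GPI anchors, by 0.63, and 0 fell, where 29.5% of all genes passed.

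**Figure D3:**
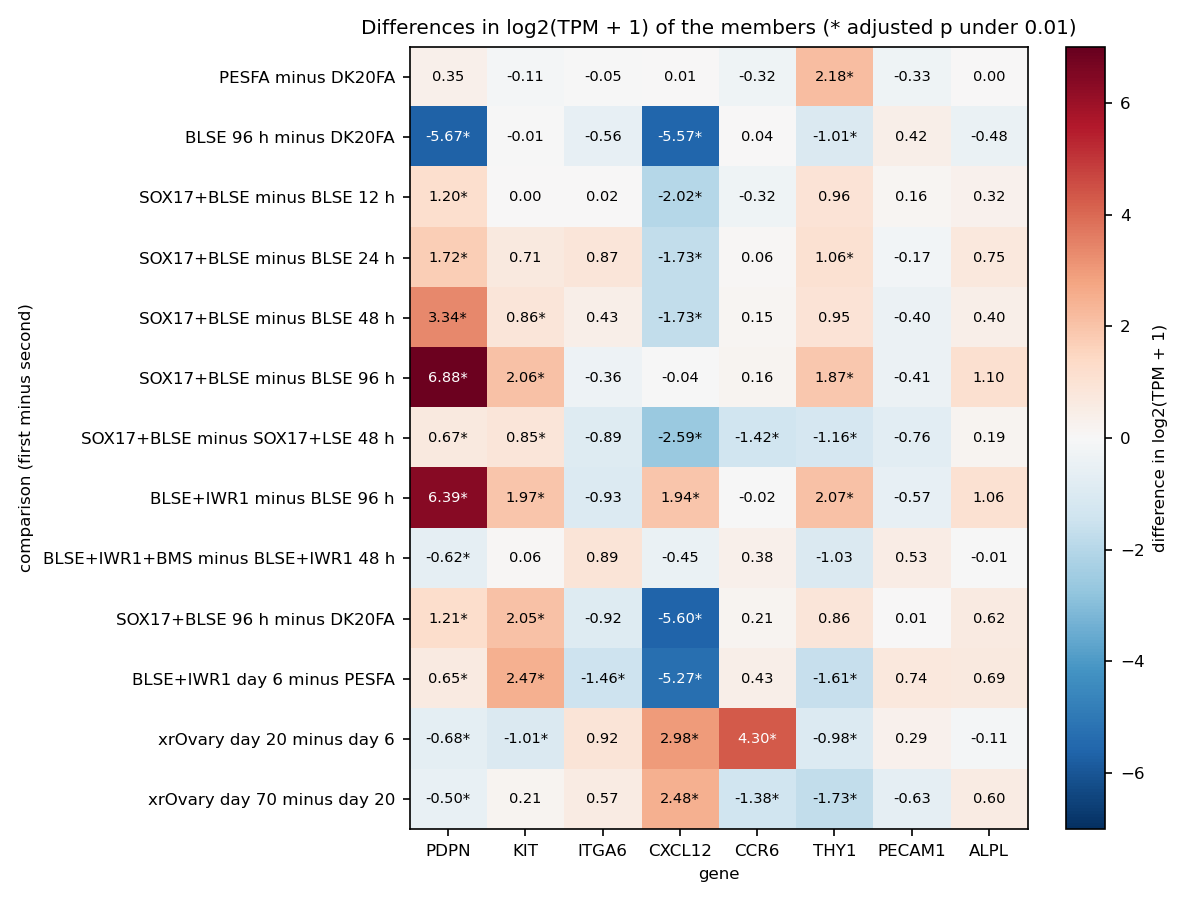
Differences in log2(TPM + 1) of the 8 genes (columns) in 13 comparisons (rows, first group minus second), with colour for size and direction and an asterisk for an adjusted p under 0.01 in limma. PDPN ranges from −5.67 in BLSE at 96 h to 6.88 with SOX17 at 96 h, CCR6 has its highest value at entry to the xrOvary, 4.30, and ALPL has no asterisk.

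Of other surface genes used to sort germ or stem cells, several abundant ones fell where PDPN rose. Of 8 tested, 2 rose and 5 fell in SOX17 + BLSE at 96 h against DK20FA, where 43.2% of all genes passed, and 2 rose and 5 fell at day 6 against PESFA, where 44.9% of all genes and 5 of the 8 members passed. PODXL, a sialomucin of pluripotent cells, went from 510 and 531 TPM in DK20FA to 125 and 138 TPM in SOX17 + BLSE, a decrease of 1.97 (adjusted p = 4.87e-11). EPCAM, used to sort human PGCLCs, fell from 1291 and 1052 TPM to 427 and 500.3 TPM (1.33, adjusted p = 5.21e-12), and by 1.98 at day 6 (adjusted p = 1.17e-16). CDH1 (E-cadherin) fell by 1.90 and 2.78 in these comparisons. FGFR3, a receptor that marks fetal germ cells, rose by 1.70 (adjusted p = 8.29e-06) and by 1.36 (adjusted p = 0.000178), with 12.2 and 10.7 TPM in SOX17 + BLSE at 96 h.

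Both chemokine genes rose on transfer to the xrOvary. From day 6 to day 20, 5 of the 8 genes passed, where 20.4% of all genes did: CCR6 and CXCL12 rose, and PDPN, KIT and THY1 fell. CCR6 went from 0.54 and 0.18 TPM to 18.6 and 34.9 TPM (log2 fold change 4.30, SE 0.317, adjusted p = 2.83e-13). It was then at 17.4 and 18.1 TPM at day 40 and 7.72 and 11.0 TPM at day 70, and these 3 groups were the highest of the 27, with no overlap between one and the next. The decrease from day 20 to day 70 was 1.38 (95% interval −2.02 to −0.74, adjusted p = 0.0011), and without the second day 20 library, at 34.9 TPM, it was 0.94 (adjusted p = 0.0746). The adjusted p was 0.0374 without the first day 70 library. Day 40 differed from day 20 by −0.50 (adjusted p = 0.374) and day 70 from day 40 by −0.88 (adjusted p = 0.117). Over the 27 groups the patterns closest to CCR6 were those of DMRT3, LRRC31 and DBX2, each at r = 0.95. CCR6 was low in every group outside the xrOvary, so these r rest mostly on the 3 xrOvary groups and are descriptions with no test.

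CXCL12 in the xrOvary was at 11.6 and 8.13 TPM at day 20, 31.9 and 32.8 TPM at day 40 and 58.4 and 59.4 TPM at day 70, with no overlap between the times. It rose by 2.98 (log2) from day 6 to day 20 (adjusted p = 3.84e-09), by 1.64 to day 40 (adjusted p = 0.000714) and by 2.48 from day 20 to day 70 (adjusted p = 2.12e-07), and the step from day 40 to day 70, 0.85, did not pass (95% interval 0.19 to 1.5, adjusted p = 0.152). The call at day 40 had an adjusted p of 0.0109 and 0.013 without either day 40 library, and 0.0306 without the second day 20 library. The cells were sorted from aggregates with mouse gonadal somatic cells. Of 10 gonadal somatic markers 7 were in the table, and they summed to between 1.22 and 3.99 TPM at day 20, 1.08 and 1.34 TPM at day 40 and 0.52 and 0.95 TPM at day 70, with NR5A1 and NR2F2 listed at 0 in all 6 libraries. The fibroblast and mesenchyme markers summed to between 52.7 and 58.0, 38.3 and 39.9, and 35.8 and 37.8 TPM at these times. The part of other cells in the CXCL12 values was not tested. Mouse RNA that aligned to the marmoset genome was not tested for.

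Of 10 tested genes around these chemokine receptors, 1 rose and 0 fell from day 6 to day 20, where 20.4% of all genes passed. This was the chemokine CXCL14, with 18.6 and 20.2 TPM at day 6 and 62.6 and 54.8 TPM at day 20 (log2 fold change 1.55, adjusted p = 0.00304). From day 20 to day 70, DPP4, a protease that trims chemokines such as CXCL12, rose by 1.15 (adjusted p = 0.00619) to 1.80 and 3.11 TPM, and GNAI2, a G protein subunit, fell by 0.33 (adjusted p = 0.00176). CCR7, another chemokine receptor, had fallen earlier, from 20.4 and 12.6 TPM in PESFA to 0 and 0.45 TPM at day 6 (3.83 on the log2 scale, adjusted p = 5.48e-13).

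PDPN in the xrOvary was at 636 and 674 TPM at day 20, 499 and 530.4 TPM at day 40 and 472 and 456 TPM at day 70. It fell by 0.68 from day 6, at 1064 and 1037 TPM, to day 20 (adjusted p = 0.000113), and by 0.50 from day 20 to day 70 (adjusted p = 0.00455). The second decrease was 0.30 with median-ratio scaling (adjusted p = 0.0629) and 0.42 with quantile normalization (adjusted p = 0.0172), scalings under which the median gene moved by 0.13 and 0.14 in this comparison. Leaving out any 1 of its 4 libraries gave an adjusted p between 0.0142 and 0.0496. KIT was at 2.29 and 1.31 TPM at day 20, 1.94 and 2.71 TPM at day 40 and 2.16 and 2.20 TPM at day 70. It fell by 1.01 from day 6 to day 20 (adjusted p = 0.000213, 0.121 with a pseudocount of 0.1, 0.012 without the first day 6 library and 0.0211 without the second day 20 library), and day 70 differed from day 20 by 0.21 (95% interval −0.21 to 0.62, adjusted p = 0.527).

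THY1 went down further in the xrOvary, with 4.42 and 3.26 TPM at day 20, 1.16 and 0.38 TPM at day 40 and 0.21 and 0.73 TPM at day 70. It fell by 0.98 from day 6 to day 20 (adjusted p = 0.00834) and by 1.73 from day 20 to day 70 (adjusted p = 1.4e-05). The first of these had an adjusted p between 0.0108 and 0.0265 with another pseudocount, scaling, filter or with the TG− libraries alone, and up to 0.105 without 1 library. Day 20 to day 70 called 4 of the 8 genes, PDPN, CXCL12, CCR6 and THY1, where 16.1% of all genes passed, and the median of the 8 was −0.15 beside −0.13 over all genes. From day 20 to day 40, 2 of the 8, CXCL12 and THY1, and 4.6% of all genes passed (THY1 lower by 1.48, adjusted p = 0.000572, and 0.0452 without the second day 40 library), and from day 40 to day 70 limma called 0 of the 8 and 2.73% of all genes, with 2 of the 8 at an unadjusted p under 0.05.

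ITGA6 was at 2.75 and 1.64 TPM at day 20, 2.84 and 3.04 TPM at day 40 and 4.0 and 3.39 TPM at day 70, all above the day 6 libraries, and the difference of day 20 from day 6, 0.92, did not pass (95% interval 0.29 to 1.54, adjusted p = 0.0221). PECAM1 had its highest mean at day 20, with 15.8 and 18.5 TPM, and was at 12.7 and 10.2 TPM at day 40 and 11.0 and 10.5 TPM at day 70. Day 70 differed from day 20 by −0.63 (95% interval −1.14 to −0.12, adjusted p = 0.0634). The endothelial markers summed to between 54.5 and 82.1 TPM at day 20 and to between 13.2 and 17.5 TPM at day 70, with ERG and EMCN listed at 0 in all 6 libraries. ALPL was at 3.34 and 0 TPM at day 20, 3.09 and 2.28 TPM at day 40 and 2.02 and 2.30 TPM at day 70, so that its replicates at day 20 were the highest library of the 54 and one listed at 0.

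**Figure D4:**
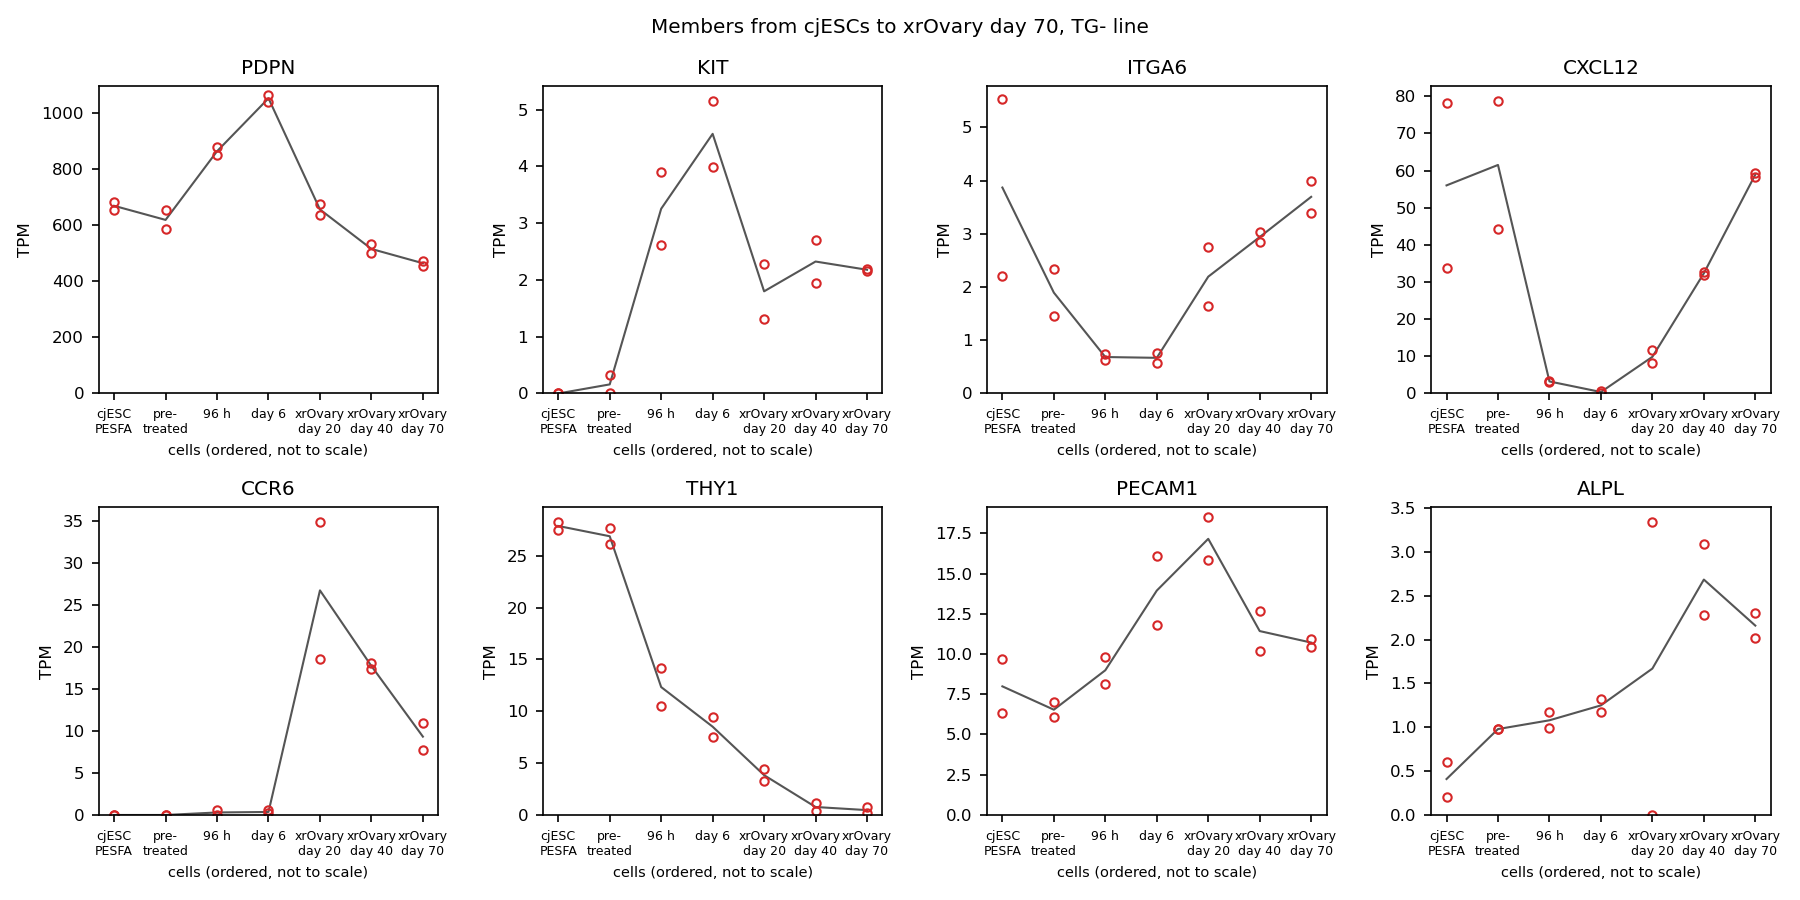
The 8 genes in TPM (linear scales that differ between panels) in the TG− line, from cjESCs in PESFA through pre-treated cells, BLSE + IWR1 at 96 h and day 6 to the xrOvary at days 20, 40 and 70, with 2 points per group for the libraries and lines through the means. CCR6 is at 0.60 TPM or less up to day 6 and at 18.6 and 34.9 TPM at day 20, CXCL12 goes from 0.70 and 0.09 TPM at day 6 to 58.4 and 59.4 TPM at day 70, and THY1 ends at 0.21 and 0.73 TPM.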

How the data were processed

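Expression was measured by strand-specific poly(A) RNA-seq in 54 libraries. Per the methods, the authors mapped single-end reads with STAR, discarded alignments of mapping quality 1 or less, and quantified the rest with RSEM. The deposited values are TPM of 14812 genes, summing to between 790300 and 839203 per library. These are fewer genes than the set common to marmosets and humans that the methods describe. The authors' own test with edgeR needs counts and was not repeated. From the TPM, log2(TPM + 1) was computed and the 11197 genes reaching 1.5 in at least 1 library were kept. Group means were fitted over all libraries with limma 3.58.1 in R 4.3.3 (27 residual degrees of freedom, intensity trend). The 30 comparisons and 2 differences between comparisons were two-sided, with Benjamini-Hochberg adjustment across the 11197 genes at 0.01 and none across comparisons. A difference over 4-fold with a mean log2 above 1.5 was a second rule. For 2 libraries against 2, the smallest p of an exact permutation test is 0.33. Depth is unknown because TPM hold no read totals.

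The methods describe the replicates as biological duplicates, and groups follow the labels. The 9 members and the gene lists were chosen with earlier results of these data known. All members are named. Of each list, counts and up to 4 genes with the largest changes in a comparison are given. For each pattern, up to the 3 genes with the highest Pearson r over the 27 group means are given. Genes named only by a LOC number were left out of that ranking. KITLG, EZR, ITGB1, ITGB4, CDH5, COL1A1 and FGFR3 are also shown outside these rules and were chosen after their values were seen. On simulated data for SOX17 + BLSE against BLSE at 48 h, 199 of 200 genes changed by 3 on the log2 scale were recovered, and 1 of 10997 genes left unchanged was called. Smaller changes were not simulated, and many of the member differences given here are smaller, so their recovery is unknown. Alternatives were a pseudocount of 0.1, no filter, median-ratio scaling, quantile normalization, no trend, 1 line alone, the replicate number as a block, and leaving out each library.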

Additional observations from a re-analysis of the deposited data

Results flagged for a closer look

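The change from cjESCs to sorted PGCLCs at 96 h differed between the SOX17 + BLSE and the BLSE + IWR1 route, by a test of the difference itself, for PDPN (0.85 on the log2 scale, larger increase with SOX17), CXCL12 (−1.97, larger decrease with SOX17) and THY1 (1.99, from a difference of 0.86 with SOX17 and −1.13 without). For THY1 the cjESCs already differed, with 5.16 and 5.56 TPM in DK20FA and 28.2 and 27.5 TPM in PESFA (log2 difference 2.18), while the sorted cells overlapped: those of SOX17 + BLSE were at 13.5 and 8.14 TPM, and BLSE + IWR1 gave 10.5 and 14.2 TPM. The 10 fibroblast and mesenchyme markers summed to between 250 and 296 TPM in DK20FA and to between 1924 and 3171 TPM in PESFA. Their part in this difference, and that of mouse feeder RNA, was not tested. The routes also differ in line, medium and pre-treatment, which cannot be told apart. The difference in PDPN between unsorted cells in SOX17 + BLSE and in BLSE was larger at 48 h than at 12 h by 2.14, and dexamethasone, given only with SOX17, cannot be told apart from the factor. The PDPN route difference became smaller without the second DK20FA library, and that of CXCL12 became smaller without the second PESFA library, as given above. With 2 libraries in a group, it cannot be told which of them is the outlying one.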

How the results depend on the processing

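Of 1209 alternative values for 110 member results, 1072 kept direction and side of the threshold, 97 kept direction but missed it, 33 newly passed it and 7 changed sign; 62 results held under every alternative run. All 7 sign changes were of differences that had not passed. Leaving out 1 library gave −0.17 to 0.10 for CXCL12 in SOX17 + BLSE against BLSE at 96 h (0.10 without the second BLSE and 0.06 without the first SOX17 + BLSE library). For KIT it gave −0.19 to 0.25 with BMS493 at 96 h (−0.19 without the second BLSE + IWR1 and −0.11 without the first BMS493 library), −0.32 to 0.12 in BLSE + IWR1 against SOX17 + BLSE (0.0043 with quantile normalization), and −0.049 (without the second day 20 library) to 0.46 at day 70 against day 20.

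The number of members called moved with a pseudocount of 0.1 from 2 to 1 for BMP4 at 24 h, 5 to 2 for BMP4 at 48 h, 0 to 1 for BMS493 at 96 h, 2 to 1 between the routes at 96 h, 5 to 3 for day 20 against day 6 and 2 to 1 for day 40 against day 20. Without the filter it was 1 for BMP4 at 24 h, 2 for BMP4 at 96 h (1 in the main fit of limma) and 1 between the routes. With median-ratio scaling it was 2 for PESFA against DK20FA, 4 for BLSE + IWR1 at 48 h against pre-treated cells, and 2 and 1 for BMS493 at 48 and 96 h, and quantile normalization gave the same 2 and 1. Without a trend it was 2 for BMP4 at 96 h and 1 between the routes, and with the TG+ line alone 1 and 3 for BMP4 at 24 and 96 h. Leaving out 1 library gave 1 to 2 for PESFA against DK20FA, 1 to 2 for SOX17 at 12 h, 1 to 2 for BMP4 at 24 h, 2 to 3 at 48 h and 1 to 2 at 96 h, 1 to 4 for BLSE + IWR1 at 48 h against pre-treated cells, 0 to 2 for BMS493 at 48 h, 1 between the routes at 96 h, 0 to 1 for day 6 against 96 h, 3 to 4 for day 20 against day 6, 0 to 2 for day 40 and 2 to 4 for day 70 against day 20. The causes were not tested beyond what each alternative leaves out.

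Replicates with the same number deviated together at r = −0.092 to 0.289, and with only 2 numbers per comparison the numbers were not taken to pair the samples. With the replicate block the members called were 2 for BMP4 at 96 h and 1 between the routes. Median-ratio scaling moved the median of all genes by up to −0.24 (SOX17 + BLSE against BLSE at 96 h), where it took the share of called genes that were higher from 64.5 to 46.4%, and from 24.1 to 46.8% for day 70 against day 20.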
